A study of Homo sapiens with 2 samples.

Results

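The hexamer UGCAUG was located on the transcribed strand of every exon that the long-read isoform models cover, and 2379 of the 9497 occurrences in hg38 were kept as single coding hexamers. Each of them overlapped annotated coding sequence, lay in a gene locus listed in the edit tables of both libraries, and had no other UGCAUG within 200 nt in the exons. They fell in 1962 loci, of which 1618 held 1 hexamer and the richest held 5, and no 50 nt windows around them overlapped. Of the 2379, 987 also overlapped an annotated untranslated region, and 64 carried more than 1 gene name.

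RBFOX2 is a nuclear splicing regulator whose single RNA recognition motif binds UGCAUG with high sequence specificity. Most of its well-known sites lie in introns that flank alternative exons, and it also binds in 3′ untranslated regions (3′UTRs). Hexamers in coding exons sit in RNA that must also be read in codons, so the same 6 bases can spell different amino acids. With the first base at codon position 1 the hexamer reads as cysteine and methionine, at position 2 it holds a histidine codon, and at position 3 an alanine codon.

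The cells were methanol-fixed HEK293T, a human embryonic kidney line that the sample records also name HEK293XT. In RBFOX2-INSCRIBE, a rabbit antibody against RBFOX2 recruited a fusion of the cytidine deaminase APOBEC1 with a nanobody against rabbit IgG, which converts nearby cytosines to uracils in place. The enzyme-only control received the same fusion without that antibody, and both were read as full-length cDNA on a PacBio instrument. There was 1 library per condition, so differences between them have no replicate check, no p-values are given, and all 95% intervals cover counting error only. Several edited positions can lie on the same read, which the tables do not show, so these intervals are too narrow to that extent.

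RBFOX2-INSCRIBE listed 121930 edited positions in 10199 loci with 2431345 reads, and the enzyme-only control 103684 positions in 10182 loci with 2233600 reads. The 12573 positions listed in both were set aside, and the rest are called positions here. Loci with a single coding hexamer had a median of 133 reads in RBFOX2-INSCRIBE and 120 in the enzyme-only control, with a range of 4 to 8003 and 4 to 7088. Across all the coding sequence of these loci RBFOX2-INSCRIBE held 15863 positions and the enzyme-only control 13609, a ratio of 1.17 (1.14–1.19), which is the baseline for the ratios in coding sequence below.

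The windows below were chosen among the hexamers with the largest lead of RBFOX2-INSCRIBE, to show positions repeated over several reads in coding sequence with no untranslated annotation. They are given on the transcribed strand in DNA letters, clipped at the exon ends, with the hexamer and the cytosines edited in RBFOX2-INSCRIBE in capitals. In NDUFV2, ZWILCH, NUP205 and CAPZA1 some of these cytosines rest on 1 converted read. They lie in NDUFV2 (chr18:9122580-9122681, plus strand), SF3B6 (chr2:24068338-24068443, minus), ZWILCH (chr15:66535970-66536069, plus), NUP205 (chr7:135645477-135645582, plus), CCT8 (chr21:29065022-29065105, minus) and CAPZA1 (chr1:112659022-112659101, plus) in hg38.
NDUFV2: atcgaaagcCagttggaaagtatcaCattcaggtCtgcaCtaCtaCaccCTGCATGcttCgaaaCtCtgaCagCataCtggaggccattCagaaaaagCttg
SF3B6: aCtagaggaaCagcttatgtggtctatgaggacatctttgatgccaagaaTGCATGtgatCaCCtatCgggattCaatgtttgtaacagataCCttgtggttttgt
ZWILCH: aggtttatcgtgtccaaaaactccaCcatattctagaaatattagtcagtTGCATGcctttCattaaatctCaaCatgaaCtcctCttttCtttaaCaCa
NUP205: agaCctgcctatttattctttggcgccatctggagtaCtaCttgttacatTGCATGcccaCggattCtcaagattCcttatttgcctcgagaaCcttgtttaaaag
CCT8: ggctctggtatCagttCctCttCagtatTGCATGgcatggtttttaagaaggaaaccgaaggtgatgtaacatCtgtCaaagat
CAPZA1: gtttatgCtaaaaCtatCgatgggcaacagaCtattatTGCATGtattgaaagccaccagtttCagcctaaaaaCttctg

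Windows in which the enzyme-only control had more positions are given in the same way for PPME1 (chr11:74230328-74230399, plus), CUL5 (chr11:108046270-108046330, plus) and DOHH (chr19:3496640-3496745, minus), with the hexamer and the cytosines edited in the enzyme-only control in capitals.
PPME1: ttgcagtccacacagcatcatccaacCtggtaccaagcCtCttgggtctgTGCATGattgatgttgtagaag
CUL5: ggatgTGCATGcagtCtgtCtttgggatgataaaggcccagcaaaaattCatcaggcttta
DOHH: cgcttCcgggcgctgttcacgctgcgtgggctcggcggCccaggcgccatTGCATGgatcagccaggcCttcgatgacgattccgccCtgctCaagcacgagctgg

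Against the coding rate of each hexamer's own gene, edited positions beside single coding hexamers exceeded the expected number in RBFOX2-INSCRIBE and not in the enzyme-only control. Within 50 nt of the 2379 hexamers there were 1318 positions in RBFOX2-INSCRIBE and 841 in the enzyme-only control, a ratio of 1.57 (1.44–1.71), and 1316 and 835 of them lay in the hexamer's own exon. Per 1000 cytosines in these windows this is 24.8 (23.4–26.1) against 15.8 (14.7–16.9), compared with 16.6 and 14.2 over all coding cytosines of the same loci, so that before any allowance for the gene the windows were denser in both libraries. When each window's cytosines were given their own gene's coding rate, the observed number was 1.23 times the expected number in RBFOX2-INSCRIBE (1.16–1.30) and 0.946 times in the enzyme-only control (0.883–1.01). With the rate taken over all exonic cytosines of the gene, untranslated ones included, both libraries exceeded it, at 1.52 (1.44–1.61) and 1.22 (1.14–1.31).

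Most single coding hexamers had no position in either library. A position was present at 715 hexamers in RBFOX2-INSCRIBE (30.1%, Clopper-Pearson 28.2–31.9) and at 566 in the enzyme-only control (23.8%, 22.1–25.6). For comparison, non-overlapping tiles of coding exon as wide as a window held a position in 25.3% and 23.3% of cases, over 23669 tiles of the same genes. These tiles are full width, while windows near an exon end are clipped and hold less exon. At the 1067 hexamers at least 50 nt from both exon ends, 32.1% (29.35–35.04) had a position in RBFOX2-INSCRIBE. In the enzyme-only control 26.6% (23.99–29.38) of them did. For both libraries this interval lay above the share of tiles with a position. Over all hexamers, positions were present in both libraries at 264 and in neither at 1362. They were present in RBFOX2-INSCRIBE alone at 451 and in the enzyme-only control alone at 302.

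A hexamer was called higher in a library when it had at least 3 positions there and at least 3 times as many as in the other library. By this rule 108 hexamers were higher in RBFOX2-INSCRIBE (4.54%, 3.74–5.45), where 2.87% of all coding tiles were. The opposite call was made at 45 hexamers (1.89%, 1.38–2.52), where 1.97% of tiles were higher in the enzyme-only control. Over all hexamers the share exceeded that of tiles on the RBFOX2 side and not on the enzyme-only side. Windows clipped at an exon end hold less exon than a tile, which lowers the shares of hexamers. At the 1067 hexamers at least 50 nt from both ends, 4.50% (3.34–5.92) were higher in RBFOX2-INSCRIBE and 2.44% (1.60–3.55) in the enzyme-only control. Over all hexamers, a lead of 3 or more positions was seen at 97 for RBFOX2, 4.08% against 2.3% of tiles. For enzyme-only it was seen at 34, 1.43% against 1.55% of tiles. A lead of 5 or more was seen at 26 hexamers for RBFOX2, 1.09% against 0.363% of tiles, and at 3 for enzyme-only, 0.126% against 0.258% of tiles.

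**Figure D1:**
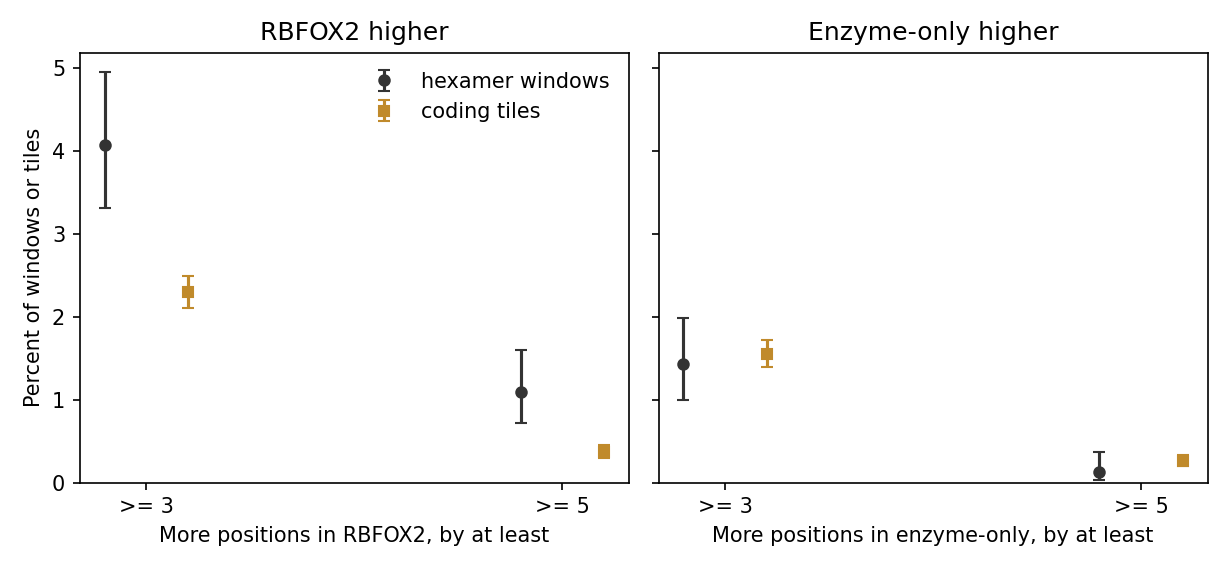
Percent of single coding hexamer windows (circles, 2379) and of coding tiles (squares, 23669) in which 1 library had at least 3 or at least 5 more edited positions than the other, with 95% Clopper-Pearson intervals. The hexamer windows lie above the tiles where RBFOX2 is higher (4.08% against 2.3%, and 1.09% against 0.363%) and not where enzyme-only is higher. Windows near an exon end hold less exon than a tile.

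The signal did not rest on a handful of hexamers alone, although the 10 of largest difference contributed to it. The 10 hexamers with most positions held 6.83% of the RBFOX2 positions and 5.95% of the enzyme-only positions. Without the 10 hexamers of largest difference the RBFOX2 value fell from 1.23 to 1.18 times the expected number (1.11–1.25). The enzyme-only value was then 0.959 (0.895–1.03).

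The values of RBFOX2-INSCRIBE were highest in the bins next to the hexamer and from 11 to 20 nt 3′ of it. In the 10 nt 5′ of it the observed number was 1.49 times the expected number (1.28–1.72), in the 10 nt 3′ of it 1.38 times (1.17–1.61), and from 11 to 20 nt 3′ of it 1.63 times (1.40–1.89). From 11 to 20 nt 5′ of it the value was 1.16 (0.967–1.37), and on the 3′ side it was 1.20 (0.996–1.43) from 21 to 30 nt and 1.29 (1.07–1.54) from 31 to 40 nt. The 3′ side as a whole stood at 1.34 (1.24–1.44) and the 5′ side at 1.21 (1.12–1.31), with intervals that overlap. At 41 to 50 nt the values were 1.05 (0.842–1.29) on the 5′ side and 1.11 (0.905–1.36) on the 3′ side. The enzyme-only control lay between 0.785 and 1.03 in all 10 distance bins outside the hexamer, and the interval included 1 in each.

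**Figure D2:**
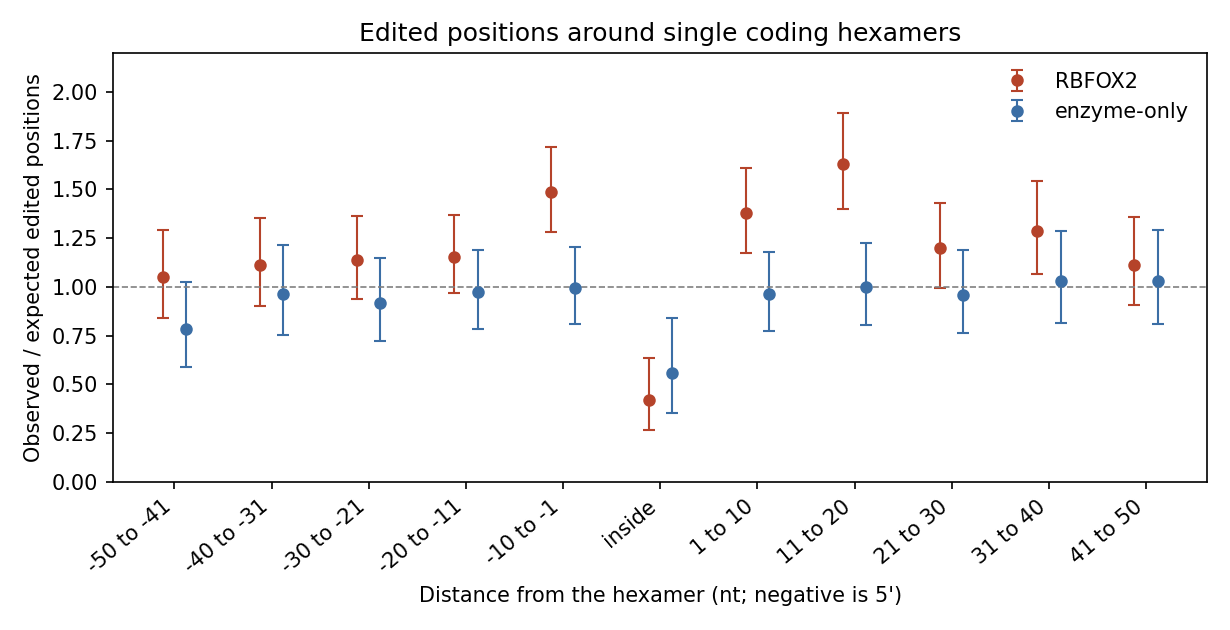
Observed over expected edited positions (vertical axis, no unit) by distance from single coding hexamers in nt, for the RBFOX2 and enzyme-only libraries, with 95% Poisson intervals and a dashed line at 1. RBFOX2 is highest from 11 to 20 nt on the 3′ side (1.63) and in the 10 nt on the 5′ side (1.49), while enzyme-only stays between 0.785 and 1.03 outside the hexamer.

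The cytosine inside the hexamer was edited less than the coding average in both libraries. It was listed at 22 hexamers in RBFOX2-INSCRIBE and 23 in the enzyme-only control, 0.421 (0.264–0.638) and 0.559 (0.354–0.839) times the expected numbers. This cytosine always follows a guanine, and APOBEC1 is known to favour cytosines after an adenine or uracil. With an expected number that took the preceding base into account, the values were 0.814 (0.510–1.23) and 0.925 (0.586–1.39), and neither differed from 1 beyond its interval.

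The preceding base also separated the libraries. Of the positions near the hexamers, 70.2% (67.6–72.6) followed an adenine or uracil in RBFOX2-INSCRIBE and 59.7% (56.3–63.0) in the enzyme-only control. Over all coding positions of the same genes these shares were 68.6% (67.9–69.3) and 62.3% (61.4–63.1), so this difference between the libraries was not confined to the hexamers. With the expected number weighted by the preceding base, the overall values were 1.24 (1.17–1.30) and 0.958 (0.894–1.02).

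Positions supported by more converted reads were more concentrated at the hexamers in RBFOX2-INSCRIBE. Positions with 1 converted read stood at 1.15 times the expected number (1.08–1.22; 1064 positions), those with 2 at 1.57 (1.34–1.84; 158 positions) and those with 3 or more at 2.11 (1.71–2.57; 96 positions). In the enzyme-only control the same classes stood at 0.955 (0.889–1.02; 776 positions), 0.882 (0.663–1.15; 54 positions) and 0.722 (0.360–1.29; 11 positions). In all, 80.7% of the RBFOX2 positions near hexamers and 92.3% of the enzyme-only positions rested on 1 read, and the most converted reads at a position were 18 and 6.

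The base composition of the exon around the hexamer separated the hexamers more sharply than reading frame or exon ends did. Of the 2379, 1111 had less than 50% G and C in the exon bases of their window outside the hexamer (AU-rich here), and 1268 had 50% or more (GC-rich here). In the AU-rich windows RBFOX2-INSCRIBE had 791 positions, 1.56 times the expected number (1.45–1.67), and the enzyme-only control 370, 1.02 times (0.919–1.13). In the GC-rich windows RBFOX2-INSCRIBE had 527 positions, 0.933 times the expected number (0.855–1.02), and the enzyme-only control 471, 0.895 times (0.816–0.980). The ratio of the libraries was 2.14 (1.89–2.43) in AU-rich windows and 1.12 (0.986–1.27) in GC-rich windows.

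Coding exon without a hexamer differed less by composition. Coding tiles of the same genes with no UGCAUG within 50 nt stood at 1.07 (1.03–1.10) in RBFOX2-INSCRIBE and 1.09 (1.05–1.12) in the enzyme-only control when under 50% GC, with a ratio of 1.28 (1.22–1.34). At 50% GC or more they stood at 0.894 (0.868–0.921) and 0.943 (0.915–0.971), with a ratio of 1.01 (0.970–1.05). Hexamers in AU-rich exon thus exceeded hexamer-free exon below 50% GC in RBFOX2-INSCRIBE, with intervals well apart. The interval of hexamers in GC-rich exon overlapped that of the tiles. Within these classes windows and tiles were not matched on GC content.

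The calls were divided in the same way. In AU-rich windows 80 of 1111 hexamers were higher in RBFOX2-INSCRIBE (7.20%, 5.75–8.88) and 20 in the enzyme-only control (1.80%, 1.10–2.77), where 3.42% and 1.72% of AU-rich tiles were. In GC-rich windows 28 of 1268 were higher in RBFOX2-INSCRIBE (2.21%, 1.47–3.18) and 25 in the enzyme-only control (1.97%, 1.28–2.90), where 2.42% and 2.18% of GC-rich tiles were. Positions with at least 2 converted reads numbered 190 and 35 in AU-rich windows and 64 and 30 in GC-rich windows. Within 20 nt of the hexamer RBFOX2-INSCRIBE stood at 1.83 times the expected number (1.66–2.02) in AU-rich windows and at 1.04 (0.915–1.18) in GC-rich windows.

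The base just before the hexamer followed the same pattern. In RBFOX2-INSCRIBE the observed number was 1.63 times the expected number after a uracil (1.45–1.83; 389 hexamers) and 1.45 after an adenine (1.29–1.62; 472 hexamers). It was 1.08 after a cytosine (0.990–1.18; 1000 hexamers) and 1.03 after a guanine (0.894–1.17; 518 hexamers). The enzyme-only control stood between 0.936 and 0.960 for all 4 bases. Weighting the expected number by the base before each cytosine narrowed the gap. RBFOX2-INSCRIBE then stood at 1.56 (1.38–1.75) after a uracil and 1.39 (1.24–1.56) after an adenine. After a cytosine it stood at 1.12 (1.02–1.22) and after a guanine at 1.05 (0.917–1.20), with the enzyme-only control between 0.937 and 0.972. Hexamers after a uracil or adenine also lay in more AU-rich exon, with a median GC content of 44% and 45%, against 55.6% after a cytosine and 54% after a guanine.

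Within a composition class the preceding base made a smaller difference. In AU-rich windows RBFOX2-INSCRIBE stood at 1.68 (1.54–1.84) after adenine or uracil, over 605 hexamers, and at 1.41 (1.26–1.57) after cytosine or guanine, over 506. In GC-rich windows it stood at 1.11 (0.918–1.34) over 256 hexamers and at 0.893 (0.809–0.984) over 1012. The intervals overlapped in both classes. The base after the hexamer gave 1.29 for adenine, 1.40 for cytosine, 1.08 for guanine and 1.17 for uracil in RBFOX2-INSCRIBE.

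**Figure D3:**
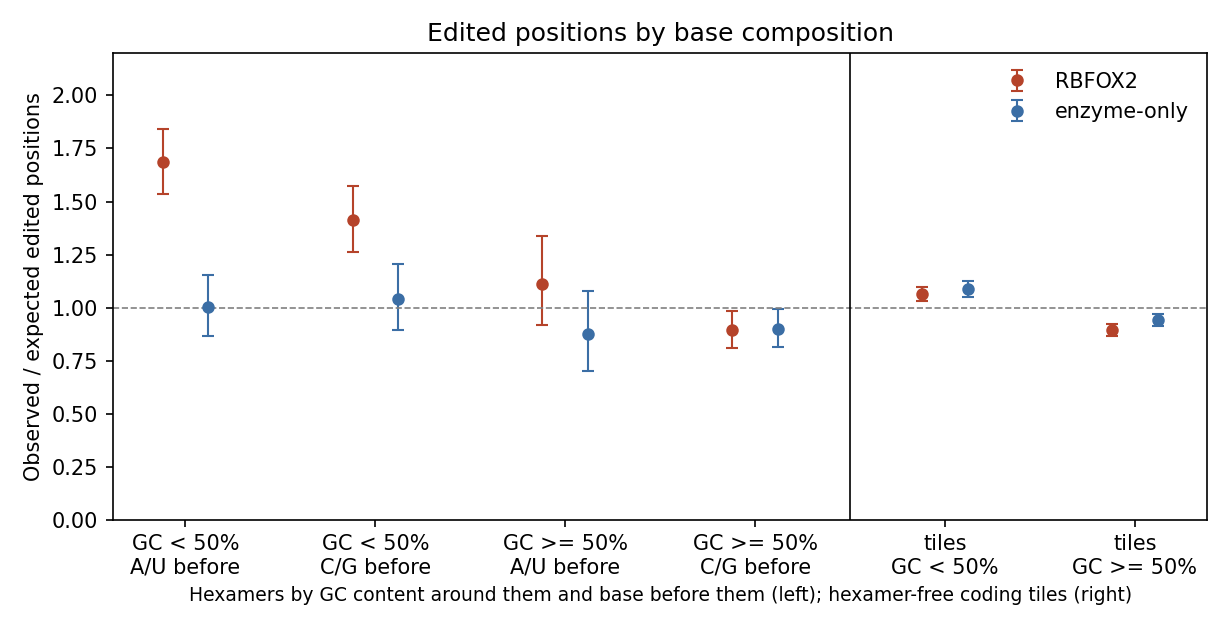
Observed over expected edited positions (no unit) for single coding hexamers grouped by GC content of the surrounding exon bases and by the base before the hexamer, and, right of the line, for coding tiles with no hexamer within 50 nt, with 95% Poisson intervals. RBFOX2 values run from 1.68 in AU-rich windows after A or U to 0.893 in GC-rich windows after C or G, while enzyme-only stays between 0.873 and 1.04 at the hexamers.

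Values overlapped between reading frames, over all hexamers and within each composition class. The first base of the hexamer was at codon position 1 in 729 cases, at position 2 in 1162 and at position 3 in 358, while 107 had more than 1 annotated frame and 23 began outside the coding sequence. RBFOX2-INSCRIBE stood at 1.18 (1.06–1.31), 1.25 (1.15–1.35) and 1.37 (1.20–1.56) for positions 1, 2 and 3, and the enzyme-only control at 0.917, 0.935 and 0.933. In AU-rich windows alone the RBFOX2 values were 1.59 (1.38–1.82), 1.59 (1.43–1.76) and 1.53 (1.32–1.77), and in GC-rich windows 0.895 (0.764–1.04), 0.957 (0.843–1.08) and 1.03 (0.779–1.33). AU-rich windows made up 292, 544 and 235 of the hexamers at positions 1, 2 and 3.

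Hexamers close to an exon end had the higher values. The median distance to the nearest end was 43 nt. At 0 to 24 nt (732 hexamers) RBFOX2-INSCRIBE stood at 1.41 (1.27–1.57), at 25 to 49 nt (580) at 1.31 (1.17–1.45), at 50 to 99 nt (473) at 1.11 (0.988–1.25) and at 100 nt or more (594) at 1.12 (1.00–1.24). The enzyme-only control gave 0.943, 0.956, 0.904 and 0.973. The ratio of the libraries went from 1.90 (1.58–2.28) nearest the ends to 1.33 (1.13–1.57) farthest away, while over all coding positions it was 1.19, 1.23, 1.17 and 1.08 in the same classes. The 2 ends of the exon gave like values at 0 to 24 nt, 1.40 (1.20–1.62) for the 5′ end and 1.44 (1.23–1.66) for the 3′ end. Exons here are merged over the isoforms of a locus, so their ends are not always splice sites.

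Within a composition class these intervals overlapped. In AU-rich windows the RBFOX2 values were 1.67 (1.46–1.90), 1.66 (1.45–1.88), 1.36 (1.17–1.58) and 1.54 (1.31–1.81) from the nearest to the farthest class. In GC-rich windows they were 1.10 (0.909–1.31), 0.885 (0.723–1.07), 0.864 (0.712–1.04) and 0.917 (0.791–1.06). AU-rich windows made up 386 of the 732 hexamers nearest an end and 218 of the 594 farthest from one.

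**Figure D4:**
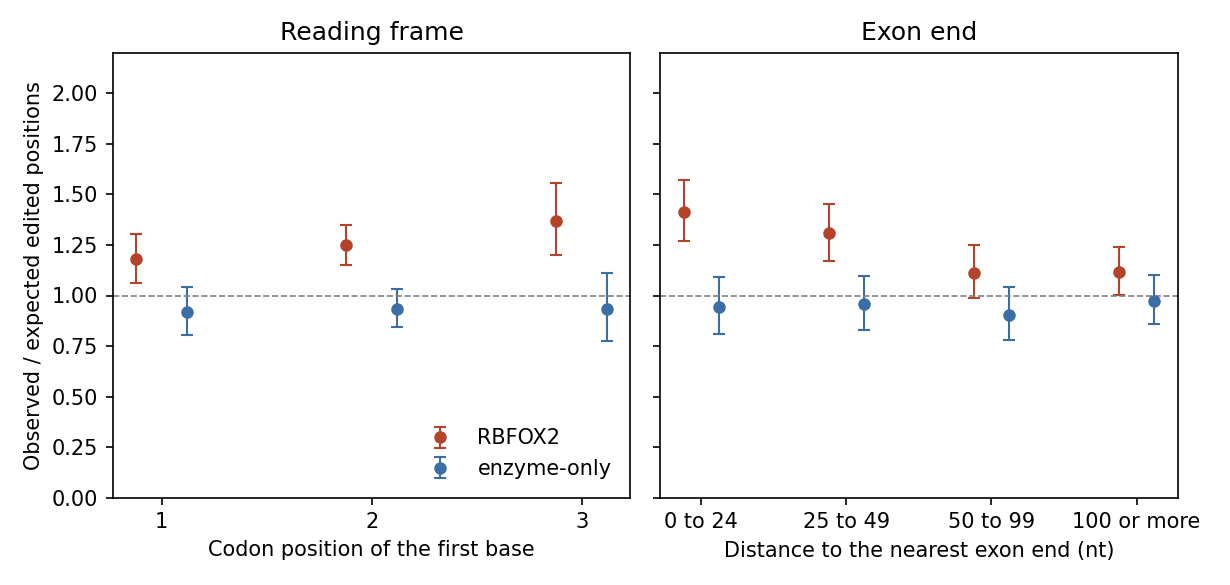
Observed over expected edited positions (no unit) around single coding hexamers by the codon position of their first base (left) and by their distance to the nearest exon end in nt (right), for both libraries, with 95% Poisson intervals. RBFOX2 lies above 1 in all 3 frames (1.18, 1.25 and 1.37) and is highest within 24 nt of an exon end (1.41).

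Hexamers were also grouped by the place of their exon among the merged exons of the locus. Those in internal exons (1910) stood at 1.26 (1.18–1.34) in RBFOX2-INSCRIBE and 0.925 (0.853–1.00) in the enzyme-only control. Those in last exons (348) stood at 1.35 (1.19–1.52) and 1.12 (0.964–1.30). The 102 hexamers in first exons were below the coding average of their genes in both libraries, at 0.579 (0.408–0.798) and 0.653 (0.449–0.917). Hexamers present in every isoform that spans them (2014) gave 1.25 (1.17–1.32), and those skipped by at least 1 such isoform (365) gave 1.17 (1.03–1.32). By gene depth, the RBFOX2 value was 1.25 (0.977–1.58) below 100 reads and 1.55 (1.28–1.85) at 1000 reads or more.

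The ratio between libraries was lower at single coding hexamers than at single hexamers in 3′UTR exons, and the ratio expected from the genes' own rates was lower too. The 2179 hexamers of the latter kind had 1982 positions within 50 nt in RBFOX2-INSCRIBE and 717 in the enzyme-only control, a ratio of 2.76 (2.54–3.01) against 1.57 (1.44–1.71) in coding exons. The expected numbers alone gave ratios of 1.73 and 1.21, so that the observed ratio was 1.60 times (1.47–1.75) the expected one in 3′UTR exons and 1.30 times (1.19–1.42) in coding exons, with intervals for the counting error of the observed positions only. A position was present at 37.1% (35.0–39.1) of them in RBFOX2-INSCRIBE and at 21.9% (20.2–23.7) in the enzyme-only control. The observed number was 1.40 times (1.34–1.47) the number expected from the gene's own 3′UTR rate, compared with 1.23 (1.16–1.30) for coding hexamers and the coding rate. In the enzyme-only control it was 0.876 times (0.813–0.943), compared with 0.946 (0.883–1.01). The 173 coding hexamers with another UGCAUG within 200 nt had 71 and 60 positions, a ratio of 1.18 (0.827–1.70), whose interval overlapped that of the single ones. Both libraries stood above the expected number there, at 1.29 (1.01–1.63) in RBFOX2-INSCRIBE and 1.31 (0.997–1.68) in the enzyme-only control. The observed ratio was 0.988 times (0.691–1.42) the expected one, so these few hexamers showed no RBFOX2 lead beyond it.

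The hexamers with the largest lead of RBFOX2-INSCRIBE were taken from genes where both libraries had the same smallest listable number of converted reads, which held 2316 of the hexamers. The greatest lead was in NDUFV2, a subunit of mitochondrial complex I, with 15 positions and 25 converted reads in RBFOX2-INSCRIBE against 1 position and 1 read in the enzyme-only control (387 and 339 reads of the gene). The 15 positions ran from 41 nt 5′ to 43 nt 3′ of the hexamer, with at most 3 converted reads at any. The single enzyme-only position lay 3 nt 5′ of the hexamer, where RBFOX2-INSCRIBE had none.

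SF3B6, the small SF3b subunit of the U2 snRNP that sits at the branch point, had 9 positions with 39 converted reads in RBFOX2-INSCRIBE and none in the enzyme-only control, at 594 and 616 reads. Its 2 strongest positions lay 7 and 12 nt 3′ of the hexamer with 8 converted reads each, as the printed window shows. CCT8, a subunit of the cytosolic chaperonin, had 6 positions with 22 converted reads against none, at 1361 and 1261 reads. At that depth at least 3 converted reads were needed for a position to be listed. In SF3B6 at least 2 were needed. The listing rule alone thus sets more than 1 converted read at every position of both genes. The CCT8 positions held 0.220% to 0.367% of the gene's reads, and the SF3B6 positions 0.505% to 1.35%.

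ZWILCH, a kinetochore protein of the RZZ complex, had 9 positions with 16 converted reads against none, at 171 reads in each library. 8 of them lay on the 3′ side of the hexamer. NUP205, a scaffold nucleoporin of the nuclear pore, had 8 positions with 15 converted reads against none, at 239 and 211 reads. 1 of these was the hexamer's own cytosine, and those 13 nt 5′ and 5 nt 3′ of the hexamer had 4 converted reads each. CAPZA1, the alpha subunit of the actin capping protein, had 6 positions with 11 converted reads against none, at 481 and 467 reads. The exon ended 38 nt 5′ and 36 nt 3′ of its hexamer.

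DCPS, the scavenger decapping enzyme, had 10 positions against none, each with 1 converted read, in a window of 66% GC. TMEM97, the sigma-2 receptor, had 7 positions against none, also with 1 read each. MKRN1, an E3 ubiquitin ligase, had 8 positions with 11 converted reads against none, all from 20 to 46 nt 3′ of a hexamer that began 8 nt into its exon. NUDCD1 had 7 positions with 11 converted reads against none. NSUN5, an rRNA cytosine methyltransferase, had 7 positions with 8 converted reads against none, in a window of 62.8% GC. NSUN5 has near-identical gene copies nearby, so its values are uncertain.

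MSH6, a mismatch repair protein, had 6 positions with 8 converted reads against none. The remaining members of this group had a position in each library. PMAIP1, the BH3-only apoptosis protein NOXA, had 7 positions with 15 converted reads against 1 position with 2 reads. NIPA2, a magnesium transporter, had 7 positions with 9 converted reads against 1 with 1. A hexamer named for ENSG00000291315 had 10 positions against 1, all with 1 read. It also lies in annotated untranslated sequence at EIF1B, so its coding status rests on the unnamed gene model alone.

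Among the same genes, those with equal smallest listable numbers of converted reads, the differences in the opposite direction were smaller. ACY1, an aminoacylase, had 5 positions in the enzyme-only control at 189 gene reads and none in RBFOX2-INSCRIBE at 186. EIF4A2, an RNA helicase of translation initiation, had 5 against 1, and the only RBFOX2 position was the hexamer's own cytosine. DOHH, which completes the hypusine of eIF5A, had 5 against 1. MAPRE2, a microtubule plus-end protein, and PPME1, the methylesterase of protein phosphatase 2A, each had 4 against none, and CUL5, a cullin scaffold of ubiquitin ligases, had 3 against none with 6 converted reads. No position in these 6 windows had more than 2 converted reads. Of the 15 hexamers leading in RBFOX2-INSCRIBE, all but DCPS and NSUN5 lay in exon below 50% GC. Of these 6, ACY1 and DOHH were at 61% and 69% GC and the other 4 were below 50%. Outside these genes, CRELD2 (624 and 472 gene reads) and SHISA5 (548 and 411) each had no position in RBFOX2-INSCRIBE and 7 in the enzyme-only control, POLD2 had 1 against 5 and SAC3D1 none against 4. A position in these 4 genes needed at least 2 converted reads to be listed in RBFOX2-INSCRIBE and 1 in the enzyme-only control, and they were named after their values were seen.

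**Figure D5:**
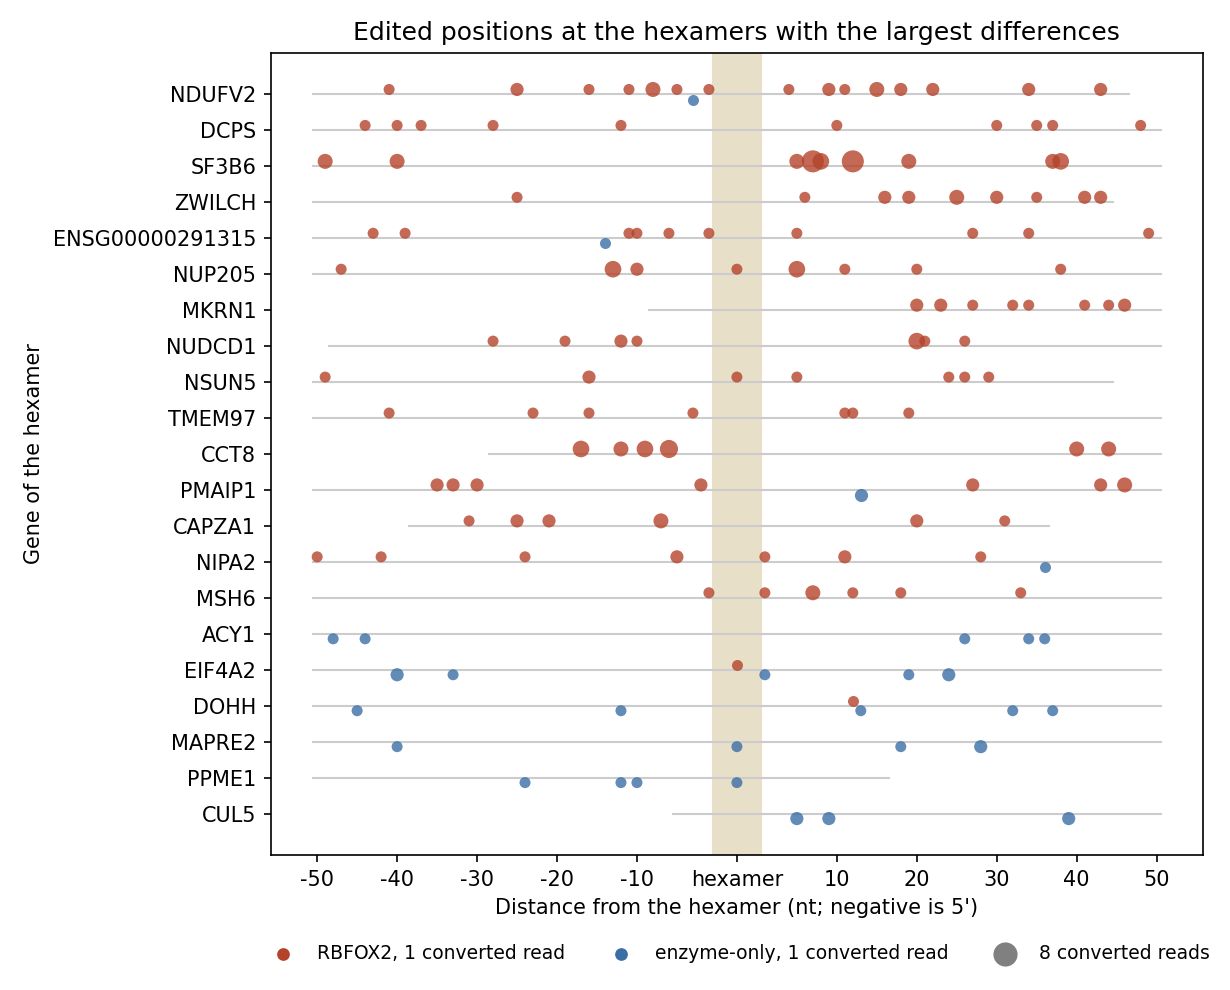
Edited positions by distance from the hexamer in nt (horizontal axis) for the 15 single coding hexamers with the largest lead of RBFOX2-INSCRIBE and the 6 with the largest lead of the enzyme-only control, among genes with the same smallest listable number of converted reads in both libraries, each row being 1 hexamer. Grey lines show the exon within 50 nt and point area grows with the number of converted reads; SF3B6 and CCT8 have the largest points beside the hexamer.

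Of the single coding hexamers in genes discussed for RBFOX2 in these cells, only that in RBFOX2 had a position. They are too few to set against the 30.1% of all single coding hexamers with a position in RBFOX2-INSCRIBE. The single hexamer in RBFOX2 itself had 1 position, 17 nt 3′ of it with 1 converted read, and none in the enzyme-only control, at 247 and 221 reads. The amyloid precursor gene APP had 2 single coding hexamers at 637 and 630 reads, DCUN1D4 had 2 at 148 and 129 reads and DEPDC1 had 1 at 346 and 370 reads, all with no position in either library. These reads are of the whole gene, and isoforms that skip the hexamer count among them. The DEPDC1 hexamer lay in 2 of the 12 isoforms that span it, and those of DCUN1D4 in 1 of 11 and 9 of 13. The hexamers of APP lay in 13 of 17 and 13 of 13. The DCUN1D4 hexamer in 1 of 11 isoforms also began outside the coding sequence. At the depth of APP a position needed at least 2 converted reads to be listed, so a single conversion there would not have been seen.

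Hexamers of 6 functional gene lists were counted beside the 30.1% and 23.8% of all single coding hexamers. In mitosis, motor and cytoskeleton genes, 18 of 40 hexamers had a position in RBFOX2-INSCRIBE and 8 in the enzyme-only control. These held 36 and 12 positions, 1.72 (1.20–2.38) and 0.853 (0.441–1.49) times the expected numbers, and 15 hexamers had more positions in RBFOX2-INSCRIBE against 7 in the enzyme-only control. Besides ZWILCH, SEPTIN7, a filament-forming GTPase of cytokinesis, had 6 positions against none. LMNA, the nuclear lamin, had none against 3, and the tubulin gene TUBA1A had 1 against 2. The median was 0 positions in both libraries, as over all hexamers.

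In kinases, phosphatases and ubiquitin enzymes, 14 of 59 hexamers had a position in RBFOX2-INSCRIBE and 5 in the enzyme-only control, with 24 and 8 positions, 1.48 (0.950–2.21) and 0.974 (0.420–1.92) times the expected numbers. PTPN13, a tyrosine phosphatase, and CDK8, the Mediator kinase, had 4 positions each against none, and UBE3A, an E3 ubiquitin ligase, had 3 against none. CUL5 had none against 3. In splicing regulators and the spliceosome, 11 of 33 hexamers had a position in RBFOX2-INSCRIBE and 6 in the enzyme-only control, with 14 and 7 positions, 1.38 (0.754–2.32) and 0.786 (0.316–1.62) times the expected numbers. SNRNP200, the helicase that unwinds U4 from U6, had 2 positions against 1 at one hexamer and 2 against none at another. RBM39 had 1 in each library, and SF1, the branch point binding protein, had none against 2. In RNA helicases and mRNA-binding proteins, 11 of 38 had a position against 7, with 14 and 12 positions, and EIF4A3 of the exon junction complex and DHX30 each had 2 against 1 while CNOT1, the scaffold of the deadenylase complex, had none against 2.

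For chromatin and membrane traffic genes the count was lower in RBFOX2-INSCRIBE, with overlapping intervals. In chromatin genes 9 of 42 hexamers had a position against 11, with 14 and 17 positions, 1.17 (0.641–1.97) and 1.71 (0.995–2.73) times the expected numbers. KDM1A, a histone demethylase, had 3 against 4 and EED of Polycomb complex PRC2 had 2 against 1. The remodelling proteins SMARCA5 and SMARCC2 had 1 against 2 and none against 2. In membrane traffic genes 11 of 67 had a position against 17, with 14 and 19 positions, 0.766 (0.419–1.28) and 1.10 (0.660–1.71) times the expected numbers. The sorting nexin SNX27 had 2 against 3 and 2 against none at its 2 hexamers, the syntaxin-binding STXBP3 had 2 against none, and TBC1D4, a Rab GTPase-activating protein, had 1 in each. For all lists but the mitosis list, the interval of the RBFOX2 value included 1. The interval of every list, the mitosis list too, included 1.23, the value over all single coding hexamers, so no list was set apart from them.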

How the data were processed

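Total RNA of fixed HEK293T cells was sequenced as full-length cDNA on PacBio, with 1 enzyme-only and 1 RBFOX2 library. Per the study's methods, the authors used pbmm2 with its ISOSEQ preset to place the reads on hg38, kept reads of quality 20 or more and of those only primary alignments to the right strand, found C-to-U edits with custom code and removed putative SNPs. The settings of the edit calling are not given in the sources used here. The deposited count columns give the converted reads at each position and the reads of the whole gene. The deposited edit fraction is the former divided by the latter and was above 0.002 in every row, so a gene with 500 or more reads has no listed position with 1 converted read. The authors' confidence score was not used. Because the denominator is the whole gene, local read depth is unknown.

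Exons of the deposited isoform models were merged by locus, UGCAUG was searched on the transcribed strand, and coding sequence, frame and names were taken from GENCODE 44. Distances to other UGCAUG are start to start. A window is 50 nt on each side of the hexamer, which gives 106 nt, and includes positions in neighbouring introns. The expected number is the sum over the window's cytosines in merged exons of the gene's positions per coding cytosine in the same library. Intervals are 95% and exact (Poisson for observed over expected, Clopper-Pearson for shares, conditional binomial for ratios). On simulated positions drawn at random from coding cytosines, the method recovered the planted values within 8%. The simulation held no preference for the preceding base, no positions sharing a read and no untranslated cytosines, so it does not cover those. Called hexamers had at least 3 positions and a 3-fold lead. Named hexamers were the 15 with the largest and the 6 with the smallest difference among genes with equal read minimums, those in APP, DEPDC1, DCUN1D4, OGT, PKM and RBFOX2 (OGT and PKM held none), and at most 4 per gene list. The members, gene lists and comparisons were chosen with earlier results of these data known, and the splits by GC content and by flanking base were added after seeing the values. Alternatives were windows of 20 and 100 nt, shared positions kept, at least 2 converted reads, stricter coding and isolation rules, and other expected numbers. Python packages were scipy 1.17.1, pysam 0.24.0, pandas 2.3.3, numpy 2.4.6 and matplotlib 3.10.9.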

Additional observations from a re-analysis of the deposited data

How the results depend on the processing

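No paired analysis was possible because each condition had 1 library and the replicate numbers in the sample records differ. Of 221 alternative values of the whole-set, reading frame and exon end results, 186 moved by less than their interval, 35 moved by more and none reversed. Leaving out 10 hexamers and an expected number by distance to the exon end were chosen after seeing the data.

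With 20 nt windows, RBFOX2 stood at 1.31 over all hexamers, 1.32 and 1.39 at codon positions 1 and 2, and 1.46 and 1.29 at 25 to 49 and 50 to 99 nt from an exon end. Hexamers with a position were then 19.1% in RBFOX2 and 14.0% in enzyme-only, and called hexamers 48 and 10. With 100 nt windows, RBFOX2 stood at 1.13 over all hexamers, 1.14 at codon position 2 and 1.25 within 24 nt of an exon end, the shares were 37.9% and 32.5%, and called hexamers 175 and 76. With at least 2 converted reads, RBFOX2 stood at 1.74 and enzyme-only at 0.850, with a ratio of 3.91, shares of 6.18% and 2.40%, and 21 and 1 called hexamers. By codon position RBFOX2 then stood at 1.73, 1.68 and 1.84, and by exon end class at 2.02, 1.90, 1.56 and 1.56, where enzyme-only was 0.802 at 25 to 49 nt. With shared positions kept, 25.9% of hexamers had an enzyme-only position. With all 6 bases coding and no untranslated annotation, which leaves fewer hexamers, 56 and 22 were called and enzyme-only stood at 0.747 at 50 to 99 nt. Over all those hexamers RBFOX2 stood at 1.20 and enzyme-only at 0.906, and 29.0% and 22.5% of them had a position. The called counts in this paragraph have no tile share at the same setting beside them, so they have no background. The cause of these shifts was not tested. With 1 converted read behind most positions, single hexamers are limited by depth.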

Other observations

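The positions listed in both libraries, which were set aside above, numbered 153 within 50 nt of the single coding hexamers and lay at 120 hexamers. Their median edit fraction was 0.433% of gene reads in RBFOX2-INSCRIBE and 0.361% in the enzyme-only control. Genes listed in only 1 of the tables were also left out above. In genes listed only for RBFOX2 there were 294 single coding hexamers, of which 26 had a position (8.84%, 5.86–12.7). In genes listed only for enzyme-only there were 248, of which 17 had a position (6.85%, 4.04–10.7).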
